A study of Rattus norvegicus with 18 samples.

Results

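rno-miR-191, rno-miR-185 and rno-miR-320 are miRNAs found in many tissues and cell types, and here they were followed through the development of the rat cortex. The 3 were taken by name, with earlier results of these data known. They were identified by the bases that the study's list of nucleotide changes gives for them. The full mature sequences came from RefSeq for miR-191 and miR-185 and from the most read tag for miR-320. They were 3 of 692 mature miRNA sequences searched, of which 622 had at least 1 read. Not every known miRNA was among these sequences, and miR-124, one of the paper's most highly expressed miRNAs, was missing. Ranks and shares given below cover only the miRNAs searched. Small RNA of Sprague Dawley rats was sequenced at 8 stages from embryonic day 10 (E10) to postnatal day 28 (P28). Of the 9 tissue samples 2 came from P0 and 1 from each other stage. Each of the 9 tissue samples was sequenced in 2 technical runs, which gave 18 libraries of 4899010 to 16590379 clean reads. By its label the tissue was forebrain for the first 2 stages, E10 and E13, and somatosensory cortex for those from E17 on, with no treatment or genetic change, so stage and tissue cannot be told apart between these first 2 stages and the later ones.

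A miRNA is cut from a hairpin in a longer transcript by Drosha and Dicer, and its bases 2 to 8, the seed, pair with target mRNAs, so a read that starts 1 base further in carries another seed. miR-191 lies in a host gene beside miR-425 on one primary transcript and is often taken as a reference in PCR assays, since its level varies little between many tissues. miR-185 comes from a hairpin inside a protein-coding gene, and the precursor of miR-320 is known in mouse to have its 5' end made by transcription and not by Drosha.

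The mature sequences of miR-191 and miR-185 from RefSeq (build GRCr8) are shown with the seed in capitals, since the 5' ends described further on decide which seed a read holds. miR-191 (chr8:118142641-118142663, plus strand) lies within the span of Dalrd3, and miR-185 (chr11:96169041-96169062, plus strand) within that of Tango2. The second line is miR-191 as it reads with its start 1 base inside, which was the main alternative start in these libraries.
rno-miR-191a-5p: cAACGGAAucccaaaagcagcug
rno-miR-191a-5p, start 1 base inside: aACGGAAUcccaaaagcagcug
rno-miR-185-5p: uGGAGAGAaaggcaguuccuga
No other of the 693 mature entries of the table shared a seed with miR-191 or miR-185, at the mature start or at the start 1 base inside. miR-320 lies beside Polr3d, and its end was taken from its most read tag, of 22 nt. The hairpins, with both annotated arms in capitals, show that both miRNAs come from the 5' side of the stem.
Mir191 hairpin: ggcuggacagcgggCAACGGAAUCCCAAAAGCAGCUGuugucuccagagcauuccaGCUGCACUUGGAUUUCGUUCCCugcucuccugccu
Mir185 hairpin: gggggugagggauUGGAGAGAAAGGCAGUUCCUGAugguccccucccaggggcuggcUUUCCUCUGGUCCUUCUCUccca

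All 3 were abundant. miR-191 had 1224576 reads over the 18 libraries (0.584% of all clean reads), miR-185 had 1129764 (0.539%) and miR-320 had 1770764 (0.845%). The smallest count in any library was 31075 for miR-191, 8242 for miR-185 and 1700 for miR-320, so counting error was small beside the differences in level described here. No tag of the 3 fitted another mature sequence of the table. A level is given in TPM, the reads of a miRNA for every 1000000 clean reads of its library.

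Several facts of the libraries bear on all that follows. E10 run 2 stood apart in length. Tags reached 30 nt in run 1 and 39 nt in run 2. A median of 0.667% of the reads of 155 miRNAs ended 2 or more bases short of the mature end there, against 13.9% to 41.9% in the other 17 libraries. Of the neural miRNAs, 2 of 3 on that list measured, summed between 23700 and 185400 TPM, miR-9 was at 66760 TPM at E10 and 11230 at P28, while miR-128 was at 1654 TPM at E10 and up to 173800 at P14. The mesenchymal miRNAs miR-199a-3p and miR-214, 2 of 2 on that list measured, summed to 29840 and 41170 TPM at E10 and E13, against 228 to 2028 TPM in the cortical samples, and nearly all of this was miR-199a-3p, with miR-214 at 94.0 and 184 TPM and then at most 2.40. The blood cell miRNAs, 4 of 5 entries measured, summed to 1216 TPM at E10 and at most 117 TPM elsewhere. The oligodendrocyte miRNAs miR-219 and miR-338 summed to 1716 to 10570 TPM from P7 on and to at most 288 TPM before, and the higher sums were miR-219, since miR-338 was at 28.0 TPM at P7, 35.5 at P14 and 133 at P28 and at up to 45.4 before. The muscle miRNAs miR-1, miR-133a and miR-206 summed to 905 to 1689 TPM from P7 on and to at most 442 TPM before. miR-133a was at 0 in P0 replicate 2 and at P3 and reached at most 3.16 TPM. The liver miRNA miR-122 stayed at or below 98.8 TPM and the endothelial miR-126 at or below 80.1 TPM. miR-124 and miR-486, also on these lists, were not among the sequences searched, so their reads were not counted. The paper places miR-124 among its most highly expressed miRNAs at every stage. Whether other cells were in the tissue, and how much they would add to the 3 miRNAs, was not tested.

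miR-191 was present at every stage. In TPM on total clean reads it was lowest at P0 and P3 in run 2. With TMM scaling, which sets the bulk of miRNAs level between samples, run 2 was instead lowest at E10 (2037 TPM) and next lowest in P0 replicate 1 (3038), while P0 replicate 2 (5331) was close to the highest value, 5383 at P7. Values in the following are on total clean reads unless TMM is named. In run 2 the level was 4833 TPM at E10, 4319 at E13, 3708 at E17, 2091 and 2861 in the 2 samples of P0, 2704 at P3, 4151 at P7, 4681 at P14 and 4711 at P28. In run 1 it was 7474 TPM at E10, 13935 at E13, 14113 at E17, 10588 and 5027 at P0, 4601 at P3, 11723 at P7, 9171 at P14 and 10483 at P28. Run 1 was higher in 9 of 9 tissue samples, by 1.55-fold at E10 up to 5.06-fold in P0 replicate 1. The 9 samples of run 2 stayed within 2.31-fold of each other, and those of run 1 within 3.07-fold. Averaged over runs, P0 was at 5142 ± 1694 TPM (SD, n = 2 tissue samples), and the other stages lay between 3652 TPM at P3 and 9127 TPM at E13.

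miR-185 was higher from P7 on in both runs and under either scaling. Up to P3 in run 2 it lay between 3567 and 5010 TPM on total clean reads, whereas with TMM it ran from 2111 TPM at E10 to 6647 in P0 replicate 2. From P7 on it was then at 7163 to 8937. On total clean reads run 2 gave 5010 TPM at E10, 4446 at E13, 4186 at E17, 3858 and 3567 at P0, 4206 at P3, 5523 at P7, 7416 at P14 and 8855 at P28. In run 1 it was 2061 TPM at E10, 6615 at E13, 5583 at E17, 7593 and 803 at P0, 851 at P3, 11069 at P7, 12270 at P14 and 9585 at P28. In both runs the 3 samples from P7 on lay above all 6 earlier samples, as did 9.03% of the 155 miRNAs with a mean level of at least 100 TPM. P0 replicate 2 and P3 were low in run 1 alone, 4.44-fold and 4.94-fold below the same RNA in run 2. The 2 tissue samples of P0 gave 3955 ± 2503 TPM (SD, n = 2) over runs.

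miR-320 was lowest at P28 in run 2 under either scaling. On total clean reads it was highest at E10 and E13. With TMM the level at E10 was 6438 TPM, below those from E13 to P14 (7432 to 20708), and P0 replicate 2 (20626) was near E13, the highest (20708). The values of that run were 15275 TPM at E10, 21994 at E13, 9319 at E17, 9772 and 11069 at P0, 11339 at P3, 7151 at P7, 6765 at P14 and 4770 at P28. Run 1 gave 9660 TPM at E10, 2678 at E13, 2549 at E17, 534 and 10630 at P0, 8618 at P3, 436 at P7, 347 at P14 and 930 at P28. It was lower in run 1 in 9 of 9 tissue samples, by 1.04-fold in P0 replicate 2 and by 19.5-fold at P14. Its median difference between runs, 5.13-fold, was the 15th largest of these 155 miRNAs, where the median miRNA differed by 1.15 on the log2 scale. That of miR-191 (1.15 on the log2 scale) ranked 78th and that of miR-185 (0.98) 93rd. At P0 the 2 tissue samples gave 8001 ± 4028 TPM (SD, n = 2).

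**Figure D1:**
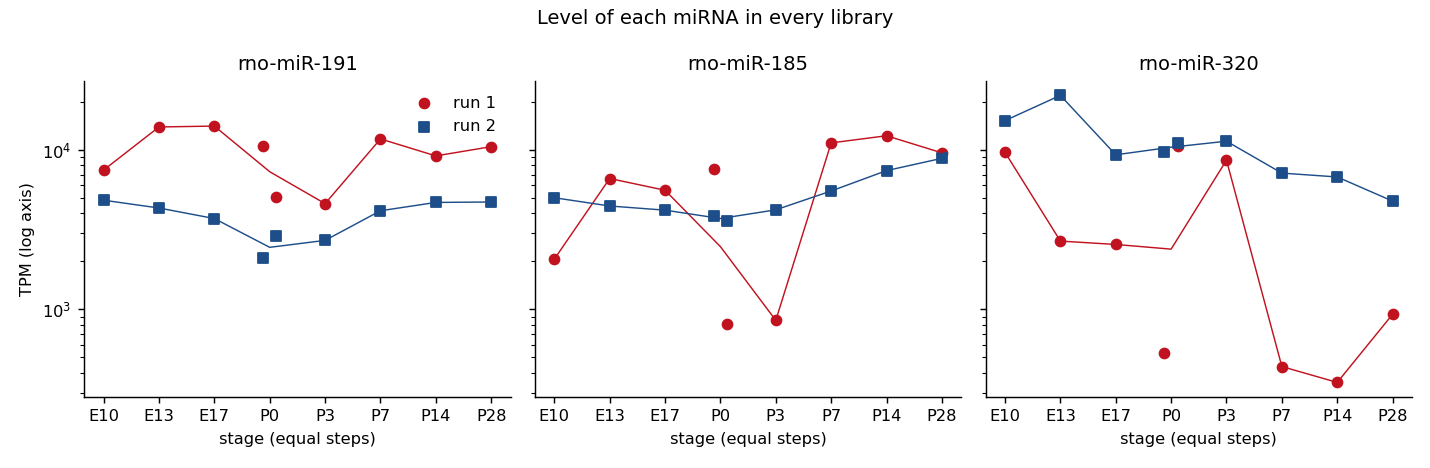
Level of rno-miR-191, rno-miR-185 and rno-miR-320 in TPM on a log axis against stage in equal steps, with run 1 as circles and run 2 as squares and each line joining the stages of a run through the geometric mean at P0. miR-320 in run 1 spans 30.6-fold over the 9 tissue samples, against 4.61-fold in run 2.

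The run changed which of the 3 was the most read. In run 2, miR-320 was the most read of the 3 up to P7, whereas miR-185 was above both others at P14 and P28. In run 1, miR-320 led at E10, in P0 replicate 2 and at P3 and was the least read in the 6 other samples. The log2 ratio of miR-185 to miR-320 ran from -2.31 at E13 to 0.89 at P28 in run 2 and from -3.73 in P0 replicate 2 to 5.14 at P14 in run 1. From E10 to P28 this ratio moved by 2.50 on the log2 scale in run 2 and by 5.59 in run 1, upward in both. The ratio of miR-191 to miR-185 was the steadiest of the 3 ratios, with an SD of 0.34 on the log2 scale in run 2 and 1.09 in run 1. It fell by 0.86 and 1.73 on the log2 scale from E10 to P28 in run 2 and run 1.

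Steadiness over development was measured as the SD of the log2 level (TPM + 0.1) over the 9 tissue samples, with the runs averaged. miR-191 had an SD of 0.48 and ranked 8th steadiest of the 155 miRNAs, whose median SD was 1.21. miR-185 had 0.79 and ranked 27th, and miR-320 had 0.83 and ranked 32nd. Without E10 miR-191 ranked 14th, and over the 7 cortical samples alone miR-191 ranked 21st, miR-320 40th and miR-185 56th. miR-191 was among the 6 steadiest in either run taken alone, with an SD of 0.59 in run 1 and 0.43 in run 2. miR-185 ranked 7th in run 2 (SD 0.44) and 88th in run 1 (SD 1.55), and miR-320 ranked 26th in run 2 (SD 0.65) and 126th in run 1 (SD 1.99). When only tags identical to the whole mature sequence were counted, the SD of miR-191 became 1.28 and its rank 71st. Few of its reads reached the annotated 3' end in most libraries.

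**Figure D2:**
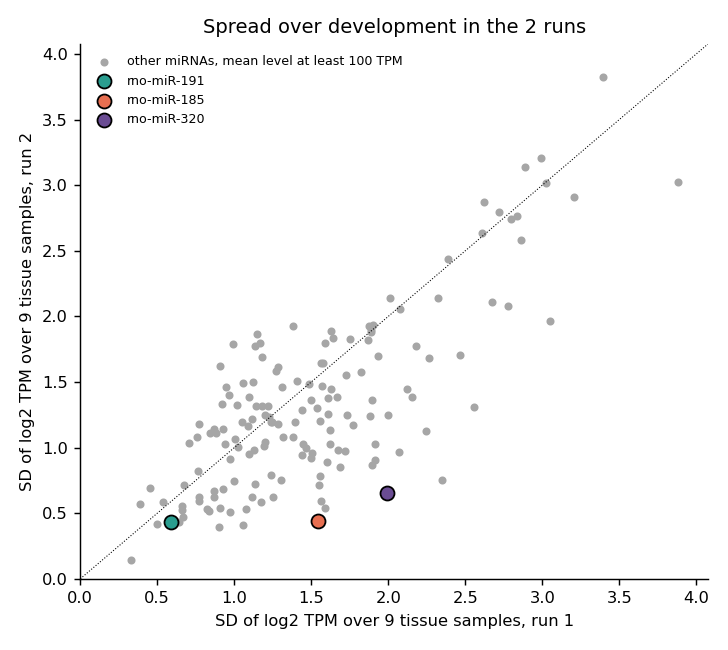
SD of log2 TPM over the 9 tissue samples in run 1 against that in run 2, with 1 point for each of the 155 miRNAs with a mean level of at least 100 TPM and a dotted line of equality. miR-191 is low on both axes (0.59 and 0.43), whereas miR-185 and miR-320 are low in run 2 alone.

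Other small RNAs that are used as references were placed by the same measure. let-7a had the smallest SD of all (0.14), although reads of near-identical let-7 miRNAs can be counted for it. miR-103 ranked 16th (SD 0.61), miR-24 26th (0.79) and miR-186 29th (0.80). miR-26b (49th), miR-23a (52nd), miR-16 (87th), miR-423-5p (88th), miR-93 (134th) and miR-25 (139th) varied more than all 3 described here, and miR-361 was below the level for ranking. With TMM scaling and the runs averaged, miR-191 stayed 8th, miR-185 moved from 27th to 42nd and miR-320 from 32nd to 48th. Within run 2 the same change of scaling left miR-191 5th and moved miR-185 from 7th to 20th and miR-320 from 26th to 34th. In run 2 with TMM scaling, which differs in both run and scaling from the first ranking of the references, miR-186 ranked 4th, miR-191 5th, miR-103 8th, miR-26b 12th, miR-185 20th, let-7a 30th and miR-320 34th.

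The slope of each level over the stage order, 1 for E10 to 8 for P28, asked whether the miRNAs rose or fell through development. It was fitted by edgeR's quasi-likelihood test with TMM scaling on counts summed over runs, with Benjamini-Hochberg adjustment over 478 miRNAs. 1 of the 3 passed an adjusted p under 0.05, against 42.7% of all 478 (19.9% rising and 22.8% falling). miR-185 rose by 0.28 ± 0.11 (SE) on the log2 scale for each stage (95% interval 0.06 to 0.51, adjusted p = 0.0448, edgeR, n = 9 tissue samples). This call was lost in run 1 alone (slope 0.34) and in run 2 alone (0.23). It was also lost when any of 7 of the 9 tissue samples was left out, and over all 9 such fits the slope lay between 0.18 and 0.33. miR-191 had a slope of 0.08 ± 0.12 (95% interval -0.17 to 0.33, adjusted p = 0.567, edgeR), and miR-320 one of -0.15 ± 0.16 (95% interval -0.51 to 0.20, adjusted p = 0.45, edgeR). The slope of miR-320 was -0.41 in run 1 alone and -0.18 in run 2 alone, and neither passed. With single tissue samples left out, the slope of miR-191 ran from -0.035 (without E10) to 0.15 (without E17) and that of miR-320 from -0.33 (without E10) to -0.014 (without P28). The median slope of all miRNAs was -0.05 with TMM scaling and -0.18 with total clean reads.

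The calls on miR-185 and miR-320 changed with the scaling. With total clean reads in place of TMM, miR-320 fell by 0.27 ± 0.081 on the log2 scale for each stage (adjusted p = 0.0159, edgeR) and the slope of miR-185 was 0.17 ± 0.085 (adjusted p = 0.116, edgeR). That of miR-191 was then -0.016. With total reads 178 of 478 miRNAs were called falling and 45 rising. Of all miRNAs called, 46.6% rose with TMM and 20.2% with total reads. The TMM factors ran from 0.527 in P0 replicate 2 to 2.80 at E10. Within the cortical samples from E17 on, miR-320 fell by 0.42 ± 0.15 on the log2 scale for each stage (adjusted p = 0.0421, edgeR, n = 7), and miR-185 had a slope of 0.17 ± 0.10 (adjusted p = 0.196, edgeR). In these samples 96 of 454 miRNAs were called falling and 98 rising.

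**Figure D3:**
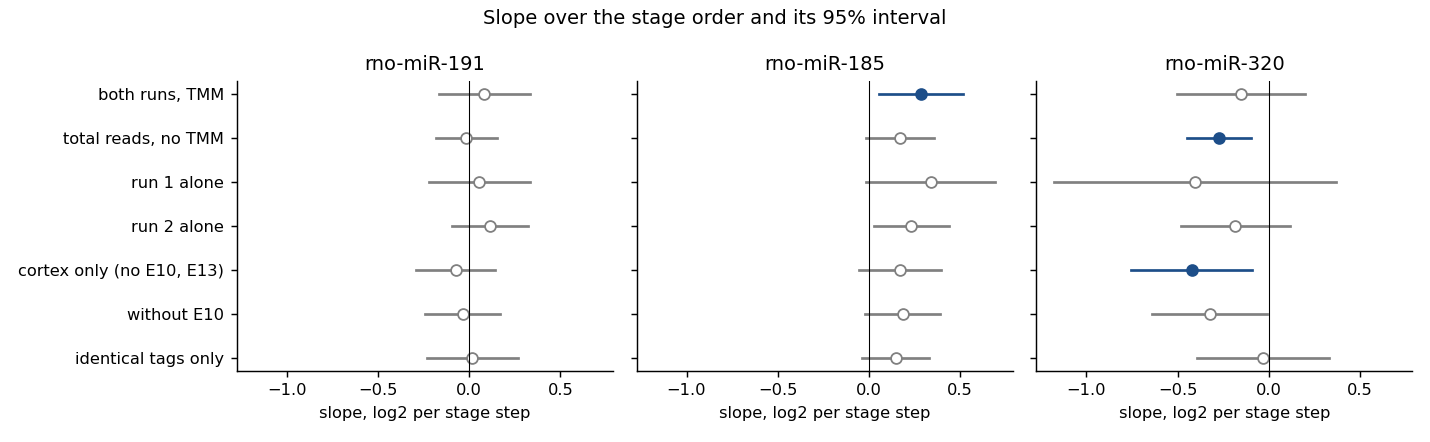
Slope in log2 units for each stage step with its 95% interval (edgeR) for the 3 miRNAs, with both runs and TMM and under 6 alternatives, where filled points have an adjusted p under 0.05. The slope of miR-185 is positive and that of miR-320 negative in each of these 7 fits, and filled points mark the few that pass the threshold.

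A contrast of P7, P14 and P28 with E10 and E13 needs no straight trend. The stages of a period served as its replicates in this fit, so its SE also holds differences between stages. miR-185 was higher at the late stages by 1.81 ± 0.55 (SE) on the log2 scale (95% interval 0.63 to 2.98, adjusted p = 0.0164, edgeR), and 46.9% of all 478 miRNAs were called in this contrast, 20.9% of them all as higher. This call was lost without E10 (1.13, adjusted p = 0.159, edgeR) and without P14 (1.54, adjusted p = 0.0592, edgeR). miR-191 differed by 0.85 ± 0.55 (adjusted p = 0.197, edgeR) and miR-320 by -0.67 ± 0.55 (adjusted p = 0.306, edgeR). For miR-320 the difference was -2.82 in run 1 alone (adjusted p = 0.0814, edgeR) and -0.92 in run 2 alone (adjusted p = 0.169, edgeR). Leaving out E10 gave 0.18 for miR-191 and -1.27 for miR-320, and leaving out E13 gave 1.5 and -0.14, where neither passed. With total clean reads the differences were 0.88 ± 0.47 for miR-185, -0.09 ± 0.45 for miR-191 and -1.64 ± 0.40 for miR-320. miR-320 alone of the 3 then passed (adjusted p = 0.00395, edgeR), where 209 of all 478 miRNAs were called lower and 46 higher. The median difference of all miRNAs moved from -0.09 to -1.13 with that change of scaling. The contrast sets cortex against forebrain, and the summed mesenchymal markers fell along it as given above, so stage, tissue and any mesenchymal cells cannot be told apart.

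The choice of reference changed the size of other miRNAs' changes. miR-29a, which rises as the brain matures, was higher at P28 than at E10 by 5.53 in run 1 and 4.82 in run 2 on the log2 scale of TPM. Taken relative to miR-191 the differences were 5.04 and 4.86, relative to miR-185 they were 3.31 and 4.0, and relative to miR-320 they were 8.91 and 6.50. The same held for miR-128, a neuronal miRNA, at 6.56 and 6.33 in TPM and 4.34 and 5.50 relative to miR-185. miR-130b was lower by 7.44 in run 1 and 9.91 in run 2 in TPM, and its log2 difference relative to miR-320 was -4.07 and -8.23. miR-92b, a miRNA of neural progenitors, had log2 differences of -2.90 and -4.44 in TPM and of 0.48 and -2.76 relative to miR-320, so that run 1 turned in direction. These are single tissue samples at each stage and were not tested. The 3 references themselves moved from E10 to P28 by 0.49 and -0.037 (miR-191), 2.22 and 0.82 (miR-185) and -3.38 and -1.68 (miR-320) on the log2 scale in run 1 and run 2.

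The 5' end of miR-191 moved with stage, in the same direction in both runs. The share of miR-191 reads that started off the mature 5' end was 8.20% and 10.1% at E10 (run 1 and run 2), 7.41% and 10.5% at E13, 7.41% and 8.59% at E17, 7.97% and 8.44% in P0 replicate 1, 8.61% and 8.83% in P0 replicate 2, 8.05% and 8.27% at P3, 5.02% and 6.34% at P7, 4.56% and 5.92% at P14 and 4.10% and 4.57% at P28. Nearly all of these reads began 1 base inside and held the shifted seed shown above. The 6 libraries from P7 on lay below all 12 earlier ones, with no overlap, a split that was chosen after the values were seen. Of the 155 miRNAs with at least 100 reads in every library, miR-191 was the only one for which this held downward (0.645%), and 0 did so upward. The 95% Wilson intervals of these shares were within 0.31 points, for counting error only.

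Over the 9 tissue samples the share of miR-191 fell with the stage order (Pearson r = -0.918, exact permutation p = 0.000187, adjusted p = 0.0145 over 155 miRNAs; Spearman rho = -0.895, exact permutation p = 0.00211, two-sided). It fell from a mean of 9.05% ± 0.16 at E10 and E13 (SD, n = 2) to 5.08% ± 0.69 at P7 to P28 (SD, n = 3). Adjusted in this way, 4.52% of the 155 miRNAs passed, 6 falling (3.87%) and 1 rising. Within runs, r was -0.808 in run 1 (exact permutation p = 0.0103, adjusted p = 0.16) and -0.964 in run 2 (exact permutation p = 6.06e-05, adjusted p = 0.0047). Without E10 and P28 r was -0.874, and without P14 and P28 it was -0.791 (exact permutation p = 0.00873 and 0.0226). These are 2 ways to leave out the 2 samples farthest from the median stage, since E10 and P14 are equally far. Leaving out P7, P14 or P28 ended the adjusted call, at r of -0.916, -0.900 and -0.874, and within the cortical samples r was -0.923 (exact permutation p = 0.00437, n = 7).

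miR-320 had the most varied 5' end of the 3. The share off the mature start was 26.7% and 25.2% at E10 (run 1 and run 2), 36.1% and 28.6% at E13, 23.2% and 19.3% at E17, 20.4% and 17.6% in P0 replicate 1, 14.9% and 17.5% in P0 replicate 2, 13.8% and 14.3% at P3, 18.4% and 13.9% at P7, 16.5% and 13.2% at P14 and 13.9% and 11.1% at P28. The 4 libraries of E10 and E13 were above the other 14, as for 1.94% of the 155 miRNAs, a split chosen after the values were seen. The later stages overlapped. Starts 1 base inside were the most common of these, from 16.1% to 27.4% at E10 and E13 and from 8.62% to 10.5% at P28, followed by starts 2 bases inside, from 4.89% to 7.70% and from 1.79% to 2.52%. Its mean share of 19.1% was the 25th highest of 155 miRNAs, where the median was 3.52%, and those of miR-191 (7.38%) and miR-185 (1.76%) ranked 45th and 111th. The level of miR-320 differed 19.5-fold between the runs at P14, where its shares were 16.5% and 13.2%.

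The trend of miR-320 missed the threshold (Pearson r = -0.840, exact permutation p = 0.00291, adjusted p = 0.0564 over 155 miRNAs; Spearman rho = -0.929, exact permutation p = 0.000816). It passed in run 2 alone (r = -0.917, exact permutation, adjusted p = 0.0154) and not in run 1 alone (r = -0.752, exact permutation, adjusted p = 0.204). Without E10 and P28 r was -0.801, and without P14 and P28 it was -0.828 (exact permutation p = 0.0167 and 0.0198). In the cortical samples alone r was -0.834 (exact permutation p = 0.0198, n = 7), where 7 samples cannot pass the adjusted threshold for a single miRNA. The largest shares were in the 2 forebrain samples, which also held the summed mesenchymal markers given above.

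**Figure D4:**
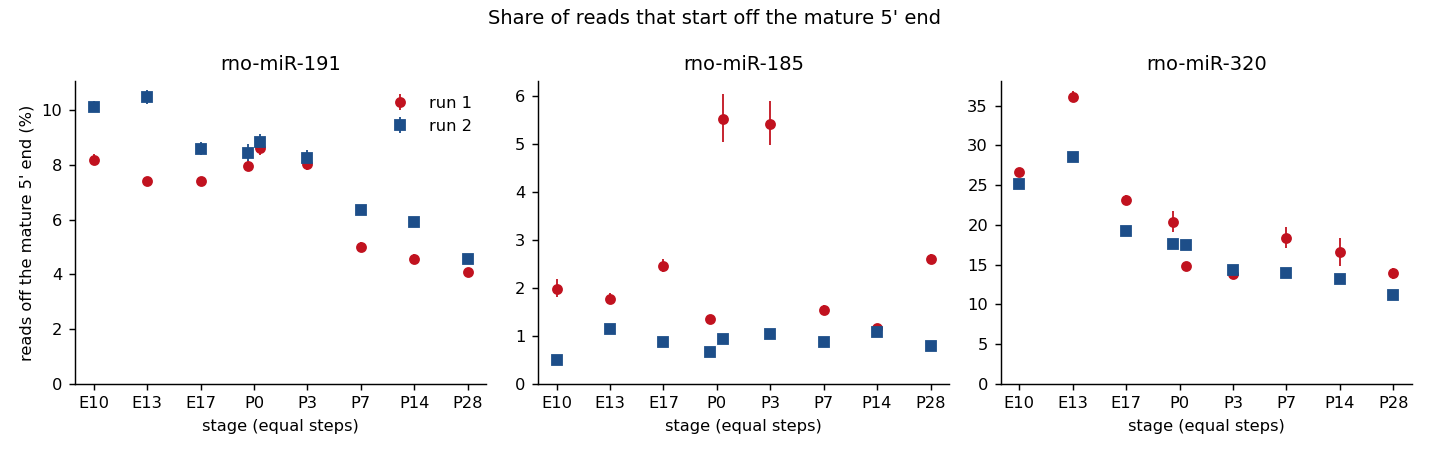
Share of reads in percent that start off the mature 5' end for the 3 miRNAs against stage, with run 1 as circles, run 2 as squares and 95% Wilson intervals as bars, on a separate axis from 0 in each panel. In miR-191 the stages from P7 on lie at 4.10% to 6.34% in both runs, below the 7.41% to 10.5% of the earlier stages.

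Few reads of miR-185 started off the mature end, though the share varied. Over the sample means it spanned 3.22-fold, against 2.11-fold for miR-191 and 2.59-fold for miR-320. In run 2 the share off the mature start was between 0.502% at E10 and 1.14% at E13, and in run 1 between 1.16% at P14 and 5.52% in P0 replicate 2. The 2 high libraries, P0 replicate 2 and P3 of run 1 (5.52% and 5.42%), were those in which its level was lowest, and in run 2 the same RNA gave 0.93% and 1.04%. No trend with stage was found (Pearson r = 0.028, exact permutation p = 0.94, adjusted p = 0.968; Spearman rho = 0.025, exact permutation p = 0.958).

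The 3' end was measured from the RefSeq end for miR-191 and miR-185 and from its own most read tag for miR-320, so the share short of the end cannot be compared between miR-320 and the other two. Of the reads of miR-191, 84.0% to 99.8% ended before the annotated end in the 17 libraries other than E10 run 2, mostly 2 to 4 bases short, so that its most read length was 19 to 21 nt. For miR-185 the share was 59.3% to 97.2%, and its most read length was 20 nt in each of these libraries. In E10 run 2 the shares were 7.62% and 1.10%, with most read lengths of 24 and 22 nt. Since no tag under 18 nt was listed, shorter ends were not seen. miR-320 ended before its most read end in 1.65% to 12.3% of reads in run 2 and in 7.30% to 45.9% in run 1, and the highest values (41.4% in P0 replicate 1, 45.9% at P7 and 40.5% at P14) were in the run 1 libraries where its level was lowest.

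None of the 3 had a 3' trend that passed (Pearson r = 0.538 for miR-191, 0.450 for miR-185 and 0.560 for miR-320, exact permutation, adjusted p = 0.234, 0.291 and 0.219; Spearman rho = 0.184, 0.285 and 0.628, exact permutation p = 0.634, 0.454 and 0.0773), against 3.23% of the 155 miRNAs. With E10 taken from run 1 alone, r turned to -0.334 for miR-191 and -0.318 for miR-185. For miR-320 it was 0.476 in run 1 and 0.789 in run 2 (exact permutation, adjusted p = 0.485 and 0.0445). The direction for miR-191 and miR-185 thus changed when E10 run 2 was left out.

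Reads of miR-320 with 1 base past the most read end were common, and that base differed with stage. Among those with the mature start, the base was an adenine in 77.7% and 71.7% at E10 (run 1 and run 2), 74.0% and 74.1% at E13, 66.0% and 66.1% at E17, 56.0% and 52.6% in P0 replicate 1, 58.1% and 57.2% in P0 replicate 2, 64.1% and 63.7% at P3, 64.1% and 64.5% at P7, 65.3% and 64.3% at P14 and 65.3% and 65.6% at P28. Nearly all others were a thymine, from 20.9% to 46.6%. The mean over runs was lowest in the 2 samples of P0 (54.3% and 57.6%) and highest at E10 and E13 (74.7% and 74.0%), and the runs of a sample differed by less than 1 point in 6 of 9 samples and by at most 6.08 points, at E10. As few as 297 such reads, with a Wilson half-width of 5.38 points, lay behind the value of P14 run 1. Whether the genome holds this base was not analysed here, so an added base and a longer cut cannot be told apart. This comparison was made after the values were seen and was not tested.

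**Figure D5:**
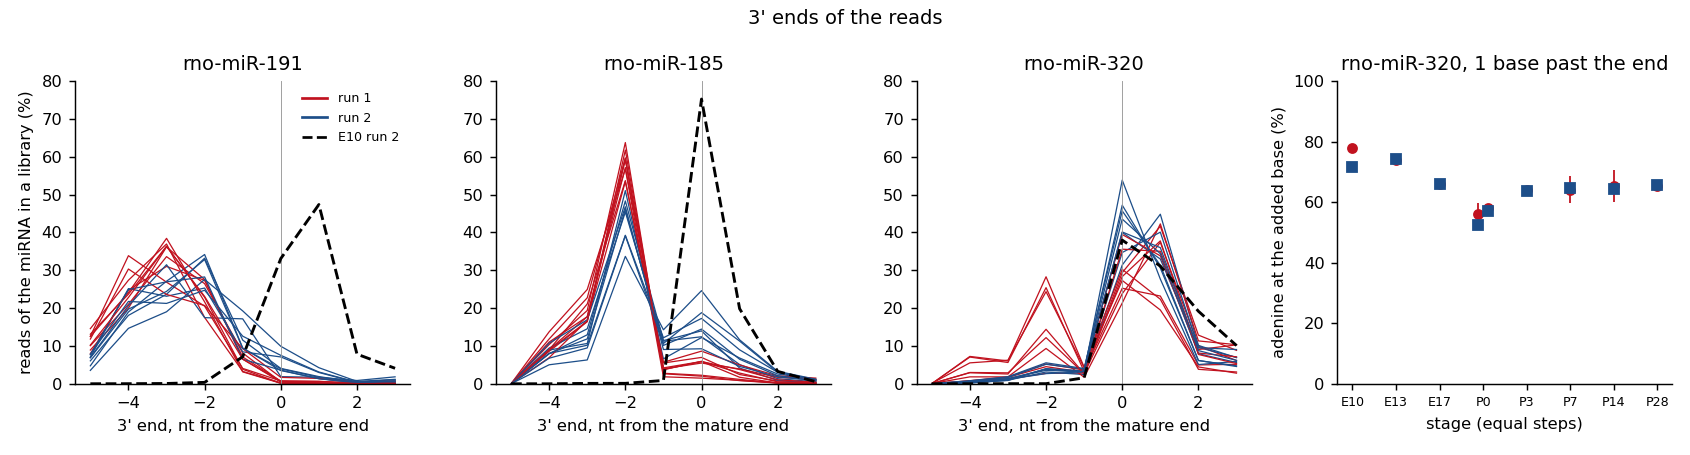
The first 3 panels give the percent of reads of a miRNA by the position of the 3' end, in nt from the RefSeq end (miR-191, miR-185) or the most read end (miR-320), with 1 line for each library and E10 run 2 dashed. The last panel gives the percent of adenine at the base past the end of miR-320 with 95% Wilson half-widths, lowest at P0 in both runs.

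The other arms were rare. The annotated miR-191 3p arm had 338 reads over run 1 and 433 over run 2, between 0.35 and 1.52 for every 1000 reads of miR-191 in a tissue sample, and its slope over the stage order was 0.036 ± 0.14 (SE) on the log2 scale (adjusted p = 0.83, edgeR). Tags on the 3' side of the Mir185 hairpin summed to 1236 reads, against 1071955 on its 5' side. The most read start on that side was base 47 of the hairpin, with 62.3% of the reads, whereas RefSeq places the 3p arm at base 58, where no read fell within 3 nt, which allows up to 0.612 TPM in the smallest library (3 reads).

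miR-425, the neighbour of miR-191 on the same strand (chr8:118143094-118143116, GRCr8), was far below it. It is shown since both come from one transcript.
rno-miR-425-5p: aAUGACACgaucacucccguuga
It had 0.869 to 8.29 reads for every 1000 of miR-191 in a tissue sample, and the highest ratio was at E10, where it reached 25.0 TPM in run 1 and 65.0 TPM in run 2. The other stages had 5.75 to 15.0 TPM in the first run and 2.72 to 9.08 TPM in the second. Its slope was -0.14 ± 0.085 on the log2 scale for each stage (adjusted p = 0.179, edgeR). rno-miR-191b, annotated on the opposite strand of the same hairpin, had 3 reads in run 1 and 11 in run 2.

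For each of the 3, the miRNAs with the most alike course were sought among the other 154 with a mean level of at least 100 TPM, by Pearson r of the log2 TMM-scaled TPM over the 9 tissue samples, which share their libraries and scaling. This is a description with no test. For miR-191 these were let-7d (r = 0.869), the 3p arm of miR-9 (0.848) and miR-125a (0.827), with an r in run 1 and run 2 of 0.849 and 0.799 for let-7d, 0.915 and -0.023 for miR-9-3p and 0.670 and 0.606 for miR-125a. For miR-185 they were miR-139-3p (0.900), miR-485-3p (0.885) and miR-485-5p (0.873), with an r in run 1 and run 2 of 0.934 and 0.945 for miR-139-3p, 0.900 and 0.445 for miR-485-3p and 0.751 and 0.908 for miR-485-5p. For miR-320 they were miR-181c-3p (0.880), miR-3099 (0.851) and the 3p arm of miR-125b-1 (0.836), with values of 0.675 to 0.780 in run 2 and 0.711 to 0.929 in run 1.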

How the data were processed

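Small RNA of 9 rat tissue samples, each in 2 technical runs, was analysed as 18 libraries. The authors sequenced size-selected small RNA on a Solexa Genome Analyzer, filtered out poor reads, adapters and contaminants and merged reads of the same sequence. What the authors deposited are raw counts per unique clean tag and library, neither normalized nor mapped. Tags of 18 nt or more are listed, which hides shorter ends, and PCR reads are not independent molecules, so intervals cover counting error only.

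Members and lists were chosen with earlier results of these data known. Tags were counted for a mature sequence when they matched it without mismatch where both have bases, started at most 3 nt from its start and ran at most 3 nt beyond its end. Mature sequences came from RefSeq (GRCr8), apart from that of miR-320, which was found from the tags. The 3 miRNAs were identified by the bases of the study's list of nucleotide changes (17 for miR-191, 17 for miR-185 and 18 for miR-320). Of the reads that fitted these bases, 99.7%, 99.8% and 99.8% fell in 1 family of tags.

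Counts summed over runs were tested with edgeR 4.0.16 (R 4.3.3, TMM, quasi-likelihood test, a minimum of 10 counts in 2 or more tissue samples, Benjamini-Hochberg adjustment over all miRNAs tested), with DESeq2 1.42.0 as an alternative. End shares were averaged over runs and tested against stage order by exact permutation over all orders of the 9 samples with numpy 2.4.6, scipy 1.17.1 and statsmodels 0.14.6 in Python 3.11.15, for every miRNA with at least 100 reads in each library. The adjustment had been planned over the 6 relations of the 3 miRNAs and was made over all 155 instead. Counting and tests were tested on simulated data. Only P0 has 2 tissue samples, so p-values of slopes and end trends rest on the spread of the samples about a trend. The contrast was fitted with the periods E10 and E13, E17 to P3, and P7 to P28, whose stages served as replicates. Its p-values thus rest on a spread that also holds differences between stages.

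The miRNAs named were the 3 members, their other arms and miR-425, the 3 miRNAs most alike in course to each member, 11 reference candidates, 4 miRNAs that move with stage and marker lists of other cells. The A at the added base of miR-320, the split at P7 and the split of E10 and E13 were chosen after seeing the values. E10 from run 1 alone, the cortical samples alone for end shares, the replicate block for end shares and run 2 with TMM for the spread were alternatives added after seeing the data.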

Additional observations from a re-analysis of the deposited data

Results flagged for a closer look

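P0 is the only stage with 4 libraries, and in each of 9 sets of 4 values (level, 5' share and 3' share of the 3 miRNAs) the library farthest from the others was compared with the whole range. In 3 sets the gap passed Dixon's 95% critical value for 4 samples, a value made for independent samples that chance passes in about 1 set in 20. The 4 libraries are 2 tissue samples in 2 technical runs each, so they are not independent and that rate does not apply to them. The level of rno-miR-320 was lower in run 1 than in run 2 in 9 of 9 tissue samples. The level of rno-miR-320 was 534 TPM in P0 replicate 1 run 1, with the other 3 libraries between 9772 and 11069 TPM, a gap of 0.877 of the range. In the same library 41.4% of the rno-miR-320 reads ended short of the most read end, a gap of 0.925. The share of rno-miR-185 reads off the mature 5' end was 5.52% in P0 replicate 2 run 1, a gap of 0.860.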

How the results depend on the processing

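The labels give the runs the same numbers at every stage, but not a shared batch. The log2 difference between run 1 and run 2 over 155 miRNAs correlated between tissue samples with r from 0.069 to 0.969, above 0.1 in 35 of 36 pairs. With 18 libraries and the run as a replicate block, the slopes were 0.28 (rno-miR-185), 0.076 (rno-miR-191) and -0.28 (rno-miR-320), the contrast of rno-miR-320 passed at -1.65 (adjusted p = 0.0478, edgeR), and 185 (slope) and 189 (contrast) miRNAs were called falling, against 109 and 124. Counting libraries makes these p-values too small. This changed no other slope or contrast call on the 3.

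The slope kept its call for rno-miR-185 with DESeq2 (0.27, adjusted p = 0.0166), without a filter and with the study's own sequences. It lost it with total reads (0.17), in run 1 (0.34), in run 2 (0.23), with identical tags (0.15), with tags of both runs (0.24), in cortex alone (0.17) and without E10, E13, P0 replicate 2, P3, P7, P14 or P28 (0.18 to 0.33 over the samples left out). That of rno-miR-320 passed with total reads (-0.27) and in cortex alone (-0.42), and was -0.33 to -0.014 over the samples left out. That of rno-miR-191 turned to -0.016 with total reads, to -0.074 in cortex alone and to -0.035 without E10 (-0.035 to 0.15 over the samples left out).

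The contrast lost its call for rno-miR-185 with total reads (0.88), in run 1 (2.15), with identical tags (0.81) and without E10 or P14 (1.13 to 2.50 over the samples left out). That of rno-miR-320 passed with total reads (-1.64) and turned to 0.14 with identical tags. That of rno-miR-191 turned to -0.090 with total reads. Over the samples left out, rno-miR-191 ran from 0.18 to 1.5 and rno-miR-320 from -1.27 to -0.14.

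Counts of miRNAs called rising and falling by slope were 95 and 109, with total reads 45 and 178, in run 1 47 and 70, with identical tags 59 rising, and without single samples 62 (without P28) to 100 rising. By contrast they were 100 and 124, with total reads 46 and 209, in run 1 38 and 76, with identical tags 56 rising, with tags of both runs 65 rising, and without single samples 40 to 109 rising and 71 to 130 falling, the lowest without E10.

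Set against the SD between the values of the 2 runs, which is wide where the runs differ most, the SD over stages moved to 0.59 (run 1) and 1.28 (identical tags) for rno-miR-191 and to 1.99 in run 1 for rno-miR-320. That of rno-miR-185 was 1.55 in run 1 and 0.44 in run 2, against 0.79.

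The 5' trend of rno-miR-191 lost its call in run 1 (r = -0.808), in cortex alone (-0.923) and without P7, P14 or P28 (-0.949 to -0.874 over the samples left out). That of rno-miR-320 passed in run 2 (-0.917), with tags of both runs (-0.845), with E10 from run 1 (-0.848) and without E13 (-0.911 to -0.813 over the samples left out). That of rno-miR-185, near 0, turned to -0.0037 in run 1, -0.27 in cortex alone, -0.14 with E10 from run 1 and -0.12 to 0.17 without single samples. With the replicate block r was -0.889 (rno-miR-191), 0.021 (rno-miR-185) and -0.819 (rno-miR-320). The 3' trend of rno-miR-320 passed in run 2 (0.789). With E10 from run 1 it turned to -0.33 (rno-miR-191) and -0.32 (rno-miR-185), in cortex alone to -0.042 (rno-miR-185), and without E10 to -0.13 and -0.16 (up to 0.67 and 0.59 over the samples left out). The cause of these changes was not tested. The hairpin alternative for the ends was not run for rno-miR-320, whose hairpin sequence was not used here, and 7 samples cannot give an adjusted p under 0.05 to a single miRNA (smallest 0.123). Depth limited the ends of rno-miR-320 in P14 run 1, with 1700 reads.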
